A study of Arabidopsis thaliana with 4 samples.

Results

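Suberin is a waxy polymer of fatty acid derivatives, glycerol and ferulate that is laid down in the walls of the root endodermis and periderm, in seed coats and at wounds, where it limits the passage of water and ions. It is built from fatty acids that are elongated by ketoacyl-CoA synthases (KCS), hydroxylated at their end by cytochromes P450 of the CYP86 family, reduced to alcohols by fatty acyl reductases (FAR), joined to glycerol by acyltransferases (GPAT) and to ferulate by a feruloyl transferase. In Arabidopsis roots more suberin is deposited under salt and abscisic acid (ABA). The genes described here were the 10 loci chosen by name for these steps: GPAT5 (AT3G11430), GPAT7 (AT5G06090), CYP86A1 (AT5G58860), CYP86B1 (AT5G23190), ASFT (AT5G41040), FAR1 (AT5G22500), FAR4 (AT3G44540), FAR5 (AT3G44550), KCS2 (AT1G04220) and KCS20 (AT5G43760). The rule used no measured value, but the loci were chosen with earlier results of these data known. A probe was matched by accession for 9 of the 10, and FAR4 matched none and has no value here. The 9 loci were among the 21732 genes that passed the signal filter, out of 34261 genes and unmatched accessions on the array.

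RNA came from whole seedlings of the wild type Col-0 (2 arrays) and of sahy9-1 (2 arrays), a single T-DNA insertion line of APUM23, a nucleolar Pumilio protein that takes part in pre-rRNA processing. All seedlings were grown for 10 days and then kept on 150 mM NaCl for 1 day, so the comparison was between genotypes under salt, and unstressed seedlings were not analysed here. Each sample was labeled with Cy3 and hybridized to its own Agilent array, all on 1 slide. The methods name 2 biological experiments, and the labels number the replicates alike in both genotypes. No label says whether the replicates came from separate plantings or whether a number marks a shared experiment. Between 74.6% and 76.3% of the 43803 gene spots of an array stood well above background, and 0 were saturated. Replicate arrays correlated at r = 0.995 in Col-0 and 0.996 in sahy9-1 across genes, and arrays of different genotype at 0.947 to 0.959. APUM23 itself lay 7.71-fold lower in sahy9-1. Levels are given as log2 of the intensity after division by each array's 75th percentile, so that 0 is the level below which 75% of the gene spots lie, and changes are sahy9-1 minus Col-0. Because each probe has its own brightness, levels were compared between arrays and not between genes.

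The suberin genes changed by less than 3-fold and in both directions. CYP86A1, CYP86B1 and ASFT were higher in sahy9-1, KCS2 and FAR1 were lower, and GPAT5, GPAT7, FAR5 and KCS20 did not pass the test. Thus 5 of the 9 genes (55.6%) passed an adjusted P of 0.05 in limma, where 49.4% of all genes tested did, so the count was close to that of the array as a whole. The 3 higher genes stood against 25.4% of all genes higher, and the 2 lower genes against 24.0% lower. At 3-fold or more, the size that the methods set for differential expression, the count was 0 of 9, against 3.24% of all genes (1.66% higher and 1.59% lower). Without the fold threshold 6 of the 9 had an unadjusted p under 0.05 in limma, where 57.5% of all genes did, and 1 of the 9 by the methods' t-test, where 43.9% did. The median change of the 9 genes was 0.16 on the log2 scale, against -0.0041 over all genes tested, and the median size of their changes was 0.39, against 0.28. The 2 arrays of one genotype lay wholly above those of the other for 8 of the 9 genes, as for 80.3% of all genes. Of the 8, 5 were higher in sahy9-1 (40.0% of all genes) and 3 were lower (40.3%). In whole seedlings, fewer cells that express a gene and less RNA per cell cannot be told apart.

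The calls depended on both sahy9-1 arrays more than on those of Col-0, and the same held over all genes tested. With 1 sahy9-1 array left out, a gene's own spread came from the Col-0 arrays alone. The median SD over all genes was 0.075 in Col-0 and 0.053 in sahy9-1. Without Col-0 replicate 1 the same 5 genes passed, and without Col-0 replicate 2 the count was 4, CYP86A1 being lost. The count of 5 fell to 0 without sahy9-1 replicate 1, to 0 without sahy9-1 replicate 2, to 0 with normexp background correction, to 0 by the methods' t-test and to 1 with no signal filter, while the share over all genes fell to 22.9%, 21.4%, 12.7%, 0.428% and 19.2%. The sign of each of the 5 called changes was kept under all 18 alternatives.

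**Figure D1:**
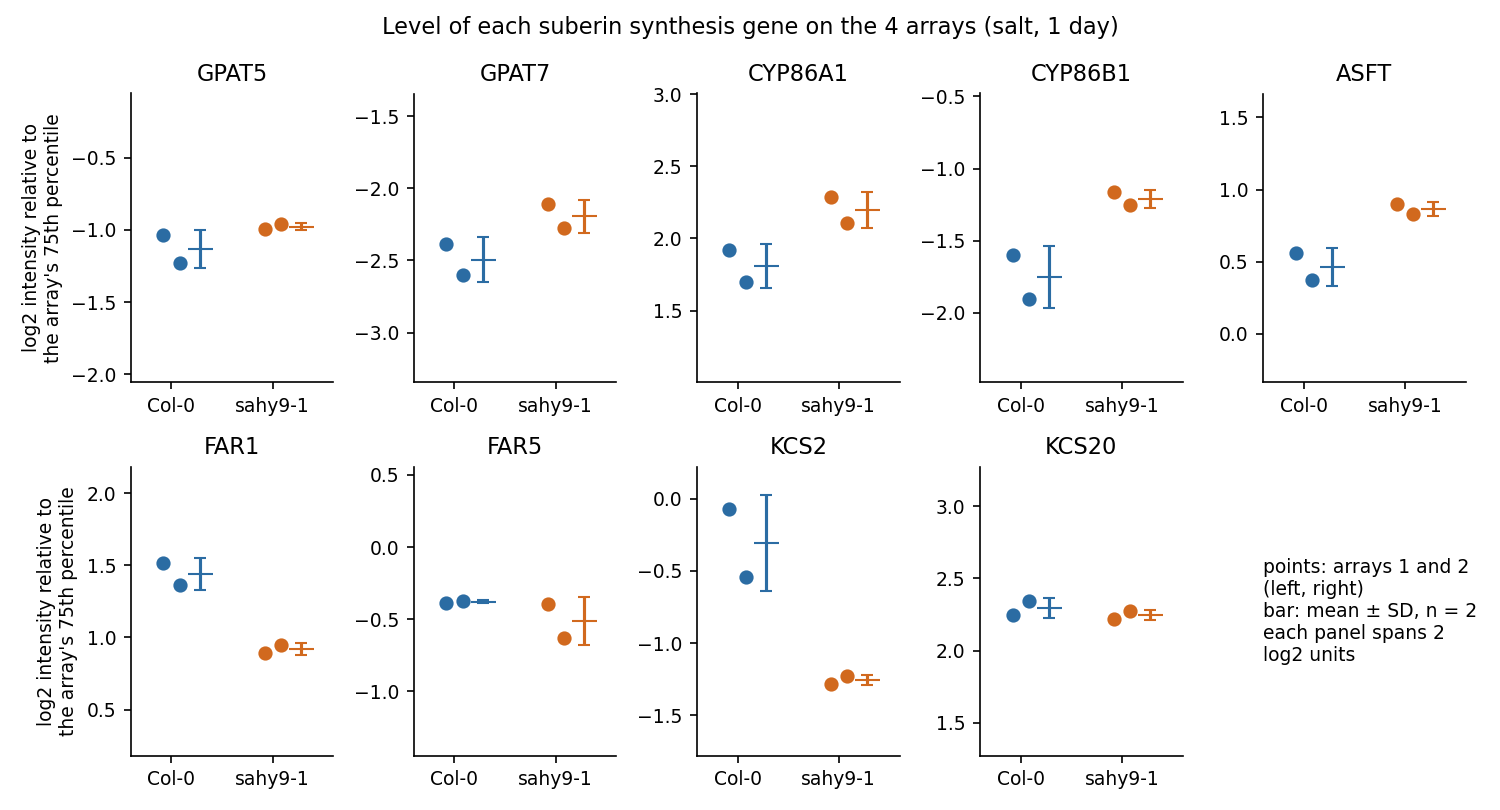
Level of each of the 9 suberin synthesis genes (log2, scaled to the array's 75th percentile, every panel spanning the same number of log2 units) on the 2 Col-0 arrays (blue) and the 2 sahy9-1 arrays (orange), with mean and SD beside the points. The genotypes are farthest apart for KCS2, where both sahy9-1 arrays lie below -1.2, and only for KCS20 do their arrays overlap.

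The P450 enzymes that put a hydroxyl group on the end of the fatty acid chain were both higher in sahy9-1. CYP86A1, also known as HORST, which acts on long-chain fatty acids in roots, lay at 1.92 and 1.70 on the Col-0 arrays and at 2.29 and 2.11 on the sahy9-1 arrays. The arrays did not overlap, and the nearest pair, Col-0 replicate 1 and sahy9-1 replicate 2, lay closer together than the 2 replicates of Col-0. It changed by 0.39 with a standard error of 0.11 (adjusted P = 0.0421 in limma), a 1.31-fold difference. The CYP86A1 call was lost without Col-0 replicate 2 (adjusted P = 0.114 in limma), without sahy9-1 replicate 1 (0.190) and without sahy9-1 replicate 2 (0.0844).

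CYP86B1, which acts on the very-long-chain fatty acids of suberin, lay at -1.60 and -1.90 in Col-0 and at -1.16 and -1.25 in sahy9-1. Both sahy9-1 arrays were above both Col-0 arrays by more than the Col-0 replicates differed. Its change of 0.54 (standard error 0.12, adjusted P = 0.0218 in limma) was the largest increase among the 9 genes, a 1.46-fold difference, and 86.8% of all genes tested had a lower value. The CYP86B1 call was lost without sahy9-1 replicate 1 (adjusted P = 0.105) and without sahy9-1 replicate 2 (0.0796 in limma).

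ASFT transfers ferulate from its CoA ester to omega-hydroxyacids and so supplies the ferulate esters of suberin. It lay at 0.56 and 0.37 in Col-0 and at 0.90 and 0.83 in sahy9-1, with the replicates of either genotype closer to each other than to the other genotype. It changed by 0.40 with a standard error of 0.089 (adjusted P = 0.0220 in limma), or 1.32-fold. The ASFT call was lost without sahy9-1 replicate 1 (adjusted P = 0.120) and without sahy9-1 replicate 2 (0.0895 in limma).

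The glycerol acyltransferases were higher on both sahy9-1 arrays than on both Col-0 arrays, but neither passed the test. GPAT5, which joins very-long-chain acyl groups to glycerol 3-phosphate in roots and seed coats, lay at -1.04 and -1.23 in Col-0 and at -0.99 and -0.96 in sahy9-1. The gap between the nearest arrays of GPAT5 was small beside the spread in Col-0, and its change was 0.16 with a 95% interval of -0.078 to 0.39 (adjusted P = 0.203 in limma). GPAT7, a close relative, lay at -2.39 and -2.60 in Col-0 and at -2.11 and -2.27 in sahy9-1. Its change was 0.30 with a 95% interval of 0.015 to 0.59 (adjusted P = 0.0771 in limma). With normexp background correction, which uses the median spot signal and adds an offset of 50, the change of GPAT7 was -0.015. With the replicate number as a block GPAT7 passed (adjusted P = 0.0200 in limma), but no label says that a number marks a shared experiment.

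KCS2 and KCS20 are ketoacyl-CoA synthases that lengthen fatty acids beyond the long-chain range and are known to act partly in place of each other in suberin and cuticular wax. KCS2 lay at -0.069 and -0.54 in Col-0 and at -1.28 and -1.23 in sahy9-1. The Col-0 replicates of KCS2 were the farthest apart of all 9 genes (SD 0.33), and both were still above both sahy9-1 arrays. It changed by -0.95 with a standard error of 0.17 (adjusted P = 0.0120 in limma), a 1.94-fold difference and the largest of the 9 genes, and 4.91% of all genes tested had a lower value. A second probe of KCS2 lay at -0.40 and -0.85 in Col-0 and at -1.65 on both sahy9-1 arrays, a change of -1.02. The KCS2 call was lost without sahy9-1 replicate 1 (adjusted P = 0.0596) and without sahy9-1 replicate 2 (0.0557 in limma).

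KCS20 was level between the genotypes within its spread. Its brightest probe lay at 2.25 and 2.35 in Col-0 and at 2.22 and 2.27 in sahy9-1, and the arrays overlapped. The change was -0.051 with a 95% interval of -0.24 to 0.14 (adjusted P = 0.577 in limma). The other 3 probes of KCS20 gave changes from -0.093 to 0.064. On each array the log2 ratio of KCS2 to KCS20 was free of the scaling between arrays. It was -2.32 and -2.89 in Col-0 and -3.50 on both sahy9-1 arrays, a difference of -0.90, with no overlap.

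FAR1, FAR4 and FAR5 reduce acyl-CoA to the primary alcohols of suberin and of the waxes bound up with it. FAR1 lay at 1.52 and 1.36 in Col-0 and at 0.89 and 0.95 in sahy9-1, well apart. It changed by -0.52 with a standard error of 0.081 (adjusted P = 0.00898 in limma), a 1.43-fold difference and the lowest adjusted P of the 9 genes. A second, dimmer probe of FAR1 changed by -0.41. The FAR1 call was lost without sahy9-1 replicate 1 (adjusted P = 0.0620) and without sahy9-1 replicate 2 (0.0529 in limma).

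FAR5 lay at -0.387 and -0.370 in Col-0 and at -0.394 and -0.628 in sahy9-1. Replicate 1 of sahy9-1 was all but level with the wild type, without overlap, and replicate 2 was below it. The change was -0.13 with a 95% interval of -0.39 to 0.13 (adjusted P = 0.313 in limma), and a second probe gave -0.098. FAR4, FAR5 and FAR8 lie next to one another on chromosome 3 in the TAIR10.1 annotation, apart from a pair of unnamed genes between them, and whether a probe of one also reads another was not tested. FAR8, whose part in suberin is less clear, changed by -0.61 (adjusted P = 0.00450 in limma).

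**Figure D2:**
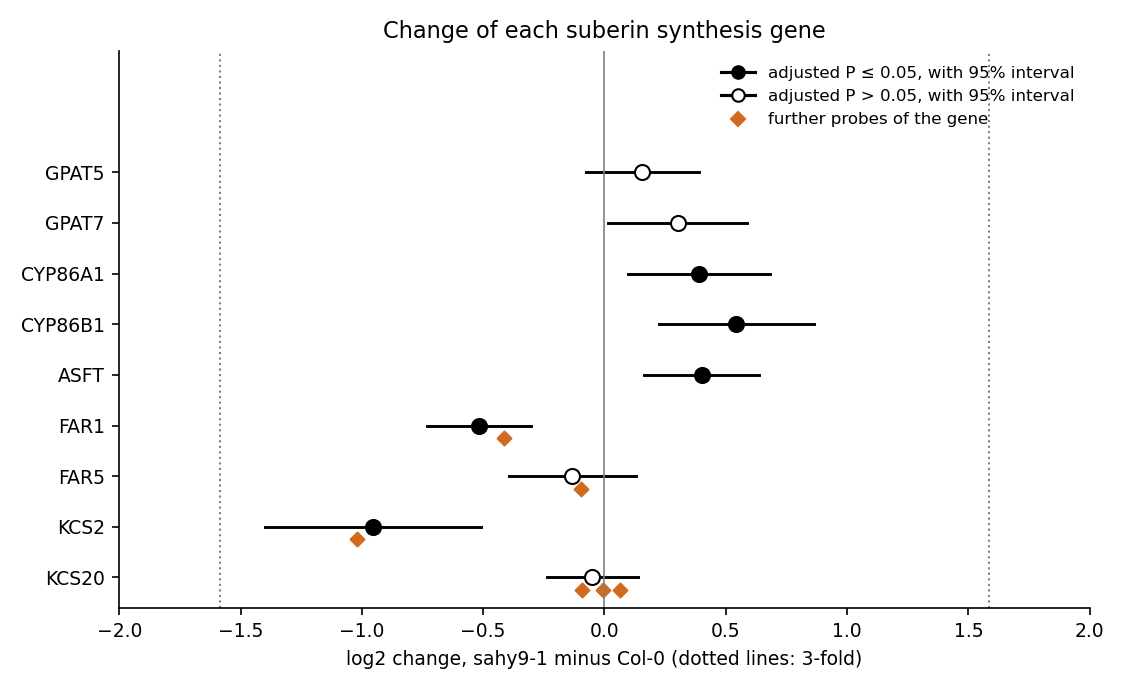
Change of each gene (log2, sahy9-1 minus Col-0) with its 95% interval from limma, filled where the adjusted P was 0.05 or less, with the further probes of a gene as diamonds. All 9 intervals lie inside the 3-fold lines, and each further probe of FAR1, FAR5 and KCS2 lies on the same side of 0 as the probe used.

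Within families, 4 pairs of genes were compared by their log2 ratio on each array. The ratio of GPAT7 to GPAT5 differed by 0.15 between the genotypes, that of CYP86B1 to CYP86A1 by 0.15, that of FAR1 to FAR5 by -0.39 and that of KCS2 to KCS20 by -0.90. The arrays of the genotypes did not overlap for any of the 4 ratios, but 80.3% of single genes did not overlap either. The share over other gene pairs was not computed. With 2 arrays against 2 the two-sided exact permutation test cannot go below p = 0.333, which each pair had, and adjusted over the 4 pairs the value was again 0.333.

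The MYB and NAC factors known to switch on suberin genes moved in both directions. Of 8 on the list, 5 passed the signal filter. At the adjusted P 1 was higher and 1 was lower in sahy9-1, against 25.4% and 24.0% of all genes tested. At 3-fold the count was 0, against 3.24% of all genes. MYB41, which drives suberin synthesis under salt and ABA, lay at -3.42 and -2.94 in Col-0 and at -3.78 and -2.91 in sahy9-1, so that its replicates differed more than the genotypes (change -0.17, adjusted P = 0.701 in limma). MYB92 lay at -3.14 and -3.32 in Col-0 and at -2.74 and -2.77 in sahy9-1, a change of 0.48 (adjusted P = 0.0119 in limma). MYB53 changed by -0.45 (adjusted P = 0.0309), while MYB93 (0.23) and ANAC046 (0.18) did not pass. MYB9, MYB39 and MYB107 were under the signal filter. The MYB92 call was lost without sahy9-1 replicate 1 (adjusted P = 0.0734) and without sahy9-1 replicate 2 (0.0685 in limma), and with normexp background correction the change was 0.049.

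Downstream, of the 7 genes tested for export of suberin precursors and for the root waxes, 1 was higher and 2 were lower (42.9% called). Over all genes tested 49.4% were called, 25.4% higher and 24.0% lower. ABCG20, a half-size transporter of suberin precursors, lay at -0.97 and -1.22 in Col-0 and at -0.44 and -0.61 in sahy9-1, a change of 0.57 (adjusted P = 0.0177 in limma). Its partners in suberin formation, ABCG2 (-0.065) and ABCG6 (0.35, adjusted P = 0.0508), did not pass. FACT, which joins caffeate to fatty alcohols for the root waxes, lay at 3.01 and 2.83 in Col-0 and at 2.08 and 2.05 in sahy9-1. The change of FACT was -0.85 (adjusted P = 0.00404 in limma), and the call was lost with normexp (adjusted P = 0.0530). FACT uses the kind of alcohol that FAR1, FAR4 and FAR5 make. ABCG11, which also exports cutin and wax, changed by -0.34 (adjusted P = 0.0189 in limma).

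Of the 7 genes for acyl activation and the shared steps of elongation, 1 was higher and 2 were lower (42.9% called). Over all genes tested 49.4% were called. The largest change was that of ACC1, the cytosolic acetyl-CoA carboxylase, at -0.38 (adjusted P = 0.0129 in limma). Of the 11 genes that supply ferulate, 2 were higher and 2 were lower (36.4% called). PAL4, a phenylalanine ammonia-lyase, changed by -0.55 (adjusted P = 0.0104 in limma), while REF1, the aldehyde dehydrogenase that makes ferulate, changed by 0.42 (adjusted P = 0.0138 in limma). In both lists 0 genes changed 3-fold. The ACC1 call had an adjusted P of 0.0721 without sahy9-1 replicate 1 and 0.0966 without sahy9-1 replicate 2, and PAL4 one of 0.0662 and 0.0502, in limma.

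**Figure D3:**
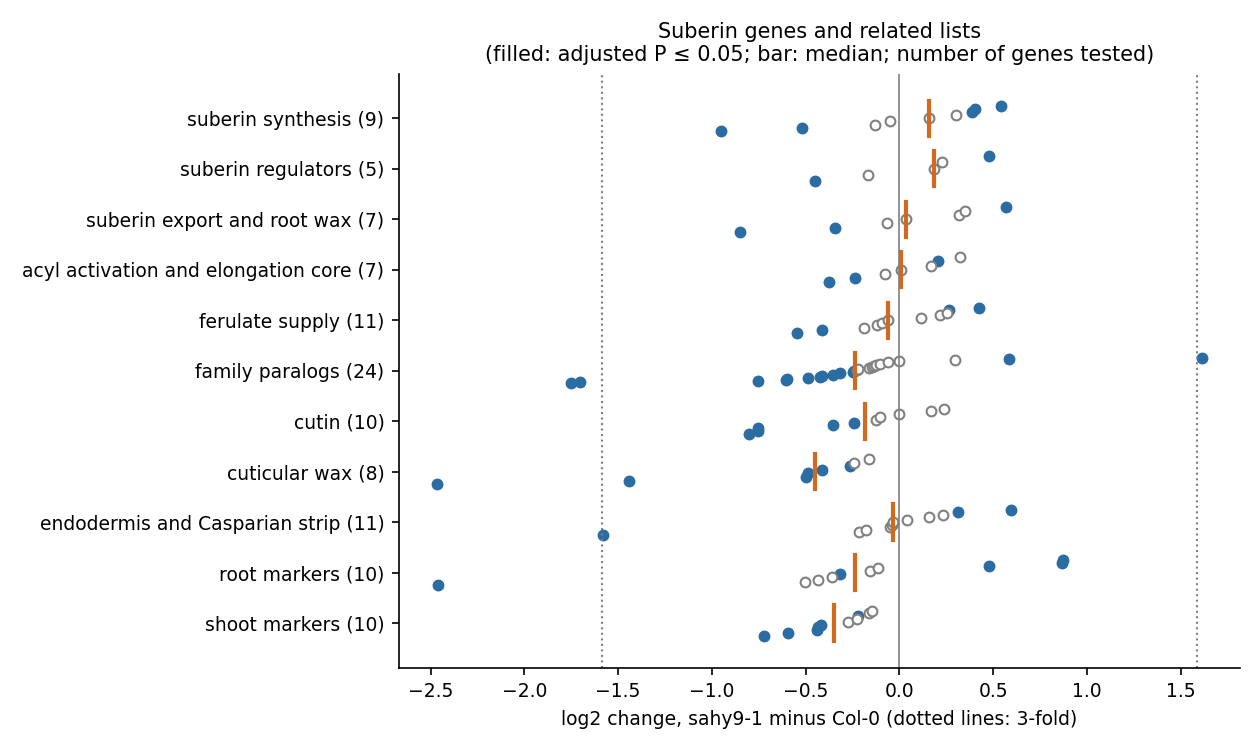
Change of each tested gene (log2, sahy9-1 minus Col-0) by list, filled where the adjusted P was 0.05 or less in limma, with the median as a bar and 3-fold as dotted lines. The suberin synthesis genes lie on both sides of 0 with a median of 0.16, and the cuticular wax genes all lie below 0 with a median of -0.45.

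The relatives of the suberin genes held 3 genes past 3-fold of 24 tested and the suberin genes 0 of 9, against 3.24% of all genes. The difference between these counts was not tested. The median size of change was 0.31 in the relatives and 0.39 in the suberin genes. Among 31 members of the GPAT, CYP86, FAR and KCS families outside the 10 loci, 24 were tested. At the adjusted P 2 were higher and 12 were lower, against 25.4% and 24.0% of all genes tested. Of these, 1 higher and 2 lower genes also changed 3-fold. GPAT2 lay at -1.10 and -1.75 in Col-0 and at -3.00 and -3.35 in sahy9-1, a change of -1.75 (adjusted P = 0.00732 in limma). CYP86A7 changed by -1.70 and KCS17 by 1.61 (adjusted P = 0.000978 for CYP86A7 and 0.000976 for KCS17 in limma). KCS17 lay at -4.71 and -4.76 in Col-0 and at -3.15 and -3.10 in sahy9-1. It passed the signal filter only through sahy9-1, where it was high, and such a filter can favour a difference. Its Col-0 intensities were 108.5 and 99.99, against the minimum of 100. With normexp background correction the change of KCS17 was 0.37. GPAT2 fell under 3-fold without Col-0 replicate 1 (-1.43) and without sahy9-1 replicate 2 (-1.58), and KCS17 without Col-0 replicate 2 (1.58).

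The polymer and waxes of the shoot surface share these enzyme families, and 9 of the 31 relatives are also on the cutin or wax list. Of the 10 cutin genes 0 were higher and 5 were lower, with DCR, an acyltransferase of cutin synthesis, at -0.80 (adjusted P = 0.00419 in limma). Of the 8 cuticular wax genes tested 0 were higher and 6 were lower, with a median of -0.45. WSD1, which makes wax esters, lay at -2.04 and -2.43 in Col-0 and at -4.36 and -5.03 in sahy9-1, a change of -2.46 (adjusted P = 0.00433 in limma). WSD1 passed the signal filter only through Col-0, where it was high. Of all genes tested 25.4% were higher and 24.0% were lower. Among the cutin genes BDG (0.24) and LACS2 (0.17) changed upward without passing. The 10 shoot markers described below were one-sided as well, with 0 higher and 6 lower. The suberin synthesis genes, with 3 higher and 2 lower of 9, did not show this one-sided pattern, and the difference between the lists was not tested.

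Markers of the cells and organs in these whole seedlings were read beside the suberin genes, and their part in the results above was not tested. The 11 endodermis and Casparian strip genes, all well above background on every array, had a mean level of -1.59 and -1.89 in Col-0 and of -1.81 on both sahy9-1 arrays, with a median change of -0.035. Of the 11, 2 were higher, 1 was lower and 8 did not pass, against 25.4% higher and 24.0% lower over all genes tested. CASP1, a scaffold protein of the Casparian strip, changed by -0.049 (adjusted P = 0.791 in limma), and CASP5 by -1.58 (adjusted P = 0.00540 in limma). CASP5 passed the signal filter only through Col-0, where it was high. Of 10 root markers tested 3 were higher and 2 were lower, with mean levels of -0.25 and -0.45 in Col-0 and of -0.51 and -0.62 in sahy9-1, and the iron transporter IRT1 was not well above background on the 4 arrays. The median change of the 10 root markers was -0.24. Among the 5 that passed, TIP2;3, a root aquaporin, changed by -2.46 and PYK10 by -0.32. The nitrate transporter NRT2.1 changed by 0.87, the phosphate transporter PHT1;1 by 0.87 and PHO1 by 0.48. Of 10 shoot markers 0 were higher and 6 were lower, with mean levels of 3.96 and 3.92 in Col-0 and of 3.58 and 3.57 in sahy9-1. LHCB2.1, a light-harvesting protein of photosystem II, changed by -0.72 (adjusted P = 0.00683 in limma).

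The Col-0 replicates differed in these root genes. Replicate 1 was above replicate 2 for 7 of the 9 suberin genes (median difference 0.19), for 10 of the 11 endodermis genes (0.32), for 8 of 10 root markers (0.19) and for 6 of 10 shoot markers (0.049), against 10860 of 21730 genes over the whole array. In sahy9-1 replicate 1 was above replicate 2 for 5 of the 9 suberin genes (0.069), for 3 of the 11 endodermis genes (-0.020), for 7 of 10 root markers (0.082) and for 5 of 10 shoot markers (0.0038), against 55.0% of all genes. The 2 suberin genes that did not follow in Col-0 were FAR5 and KCS20.

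**Figure D4:**
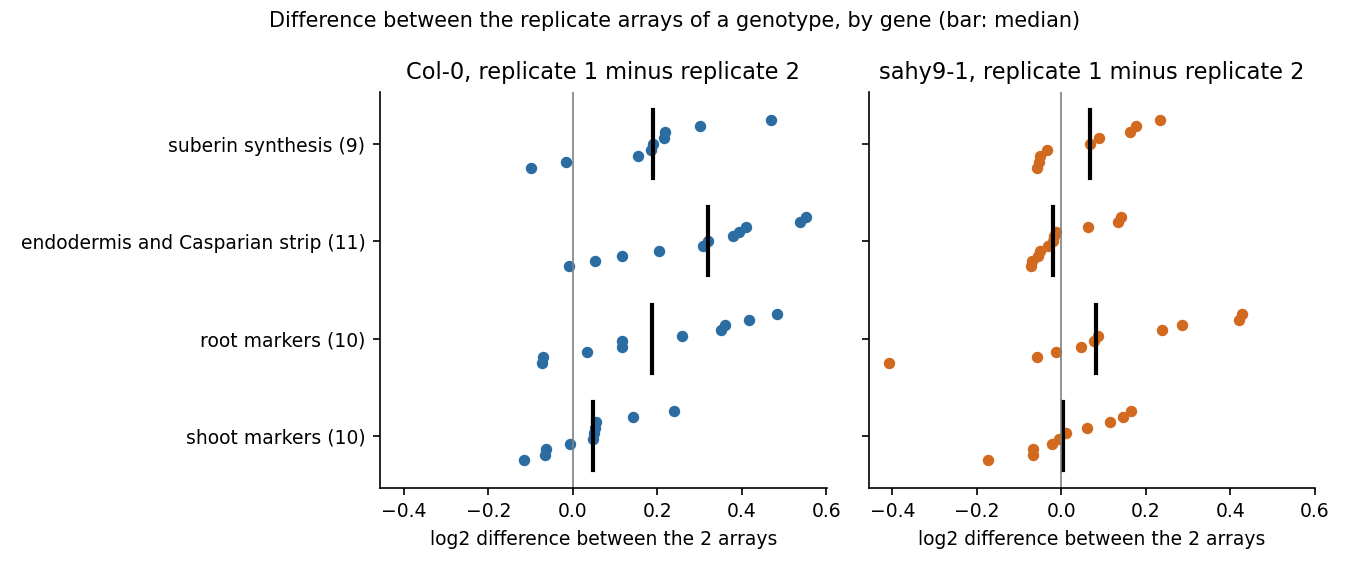
Difference between the 2 arrays of a genotype (log2, replicate 1 minus replicate 2) for each suberin synthesis gene, endodermis gene, root marker and shoot marker, in Col-0 (left) and sahy9-1 (right), with the median as a bar. In Col-0 the endodermis genes are centred on 0.32 and the suberin genes on 0.19, and in sahy9-1 on -0.020 and 0.069.

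Each suberin gene was therefore also set against the mean of the 11 endodermis genes on the same array, a reference chosen after the data were seen. The reference itself lay higher on Col-0 replicate 1 (-1.59) than on replicate 2 (-1.89). On this scale the Col-0 replicates came closer together for 7 of the 9 genes. These were the 7 with replicate 1 above replicate 2, so their differences had fixed this in advance. The Col-0 SD grew for FAR5 (from 0.012 to 0.22) and for KCS20 (from 0.070 to 0.28). CYP86B1 lay at -0.0064 and -0.011 in Col-0 and at 0.65 and 0.56 in sahy9-1, a change of 0.61. CYP86A1 lay at 3.51 and 3.59 in Col-0 and at 4.10 and 3.92 in sahy9-1, a change of 0.46. The change of ASFT was 0.47, that of GPAT7 0.37 and that of GPAT5 0.22. KCS2 lay at 1.52 and 1.35 in Col-0 and at 0.53 and 0.58 in sahy9-1, a change of -0.88, and FAR1 changed by -0.45. The genotypes did not overlap for these 7 genes, 5 higher and 2 lower, and overlapped for FAR5 (-0.064) and KCS20 (0.018). Of all genes, 63.7% did not overlap on this scale, 36.9% higher and 26.7% lower in sahy9-1. With the median of the list as reference, or with its mean without CASP4 and CASP5, the same count of 5 higher and 2 lower genes without overlap was found, and the change of CYP86B1 ranged from 0.52 to 0.61 and that of KCS2 from -0.98 to -0.88. No test was run on this scale.

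**Figure D5:**
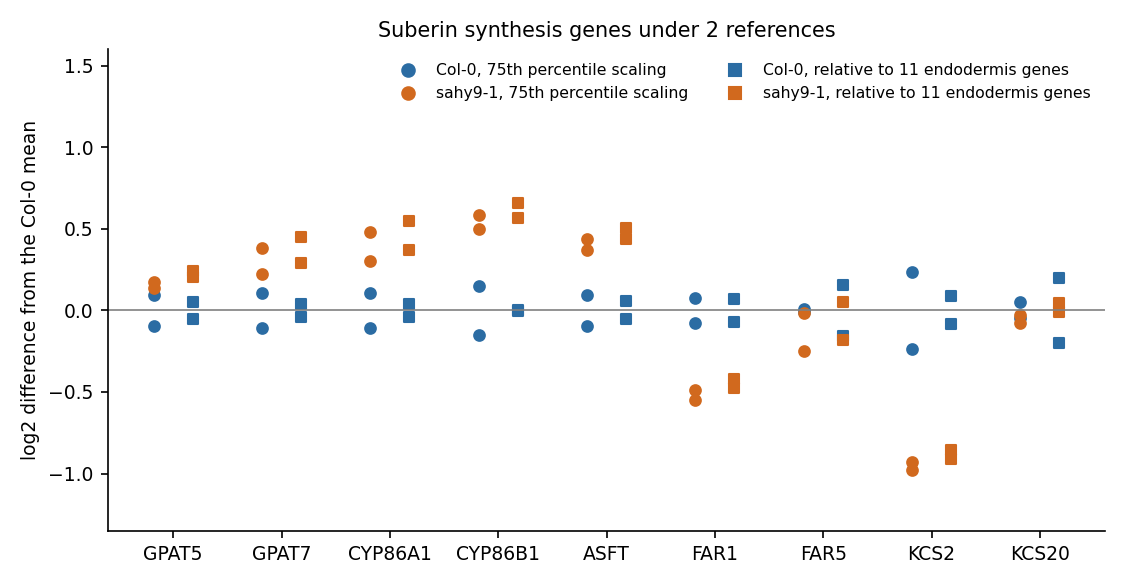
Each suberin synthesis gene on the 4 arrays as log2 difference from its Col-0 mean, scaled to the 75th percentile of the array (circles) and relative to the mean of 11 endodermis genes on the same array (squares). GPAT5, GPAT7, CYP86A1, CYP86B1 and ASFT lie above the Col-0 arrays and KCS2 and FAR1 below them under both references.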

How the data were processed

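The intensities were made by the authors with Agilent Feature Extraction 10.7.1.1, which subtracts background per spot, and were deposited without scaling between arrays. The authors also deposited a table of log2 values from GeneSpring. Its values matched log2 intensity scaled to the 75th percentile and set to the Col-0 mean of each probe to within 0.00068, although the methods name MAS 5.0, and served only as an alternative. Control and outlier spots were left out, the brightest probe stood for each gene, and genes needed an intensity of 100 on both arrays of at least 1 genotype. Of 35137 accessions 26309 matched the TAIR10.1 annotation. The genotypes were compared unpaired in limma 3.58.1 (R 4.3.3, data.table version 1.17.8, jsonlite 2.0.0) with Benjamini-Hochberg adjustment over 21732 genes, at an adjusted P of 0.05 and, where stated, 3-fold. The code was tested on simulated arrays. Figures used matplotlib 3.10.9.

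The 10 genes and the lists were chosen with earlier results of these data known. All 10 loci are named. From each related list the genes past both thresholds are named, at most 3, or else the gene with the largest change, and other genes of the lists were chosen after their values were seen. As each genotype had only 2 arrays, limma leaned on variance shared across genes, and p-values measure only the spread between these arrays. Alternatives covered background, scaling, filter, floor, outlier spots, probes, variance model, test, block, deposited table and single arrays. Normexp used the median spot signal, as the files hold no mean. Protein and promoter sequences were not used here.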

Additional observations from a re-analysis of the deposited data

How the results depend on the processing

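The count of suberin synthesis genes past the adjusted P, 5 as reported, was 0 with normexp background correction, 0 by the methods' t-test, 1 with no signal filter (FAR1) and 0 to 5 when 1 array was left out. Under the other scalings, filters, floor, probe rules, variance model and the deposited table it was 5, with the same 5 genes. At 3-fold the count was 0 under every alternative run. A 2-fold threshold was applied to the main settings only, where the count was 0. KCS2 lay beyond 2-fold with its dimmest probe (-1.02, adjusted P = 0.00882 in limma) and without Col-0 replicate 2 (-1.19). The count over the related lists at 3-fold was 5, 0 by the methods' t-test and 4 to 6 when 1 array was left out. The change of GPAT7 turned to -0.015 with normexp, where the median of all genes was -0.10. The cause of these shifts was not tested. Replicate numbers 1 and 2 occur in both genotypes, and deviations of same-numbered arrays correlated at 0.438 across genes, but no label says that a number marks a shared experiment. With the replicate number as a block the count was 6, GPAT7 passing as well (adjusted P = 0.0200 in limma), and the block changed no other call among the 9 genes. The 4 suberin genes that did not pass changed by at most 0.30 on the log2 scale, and the number of arrays limits the precision there.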
